A study of Mus musculus with 11 samples.

Results

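The genes described here are 10 neuropeptide precursors, each read by 1 probe on 2-colour arrays that compared neocortex of munc18-1 null mouse embryos with wild-type neocortex: Cartpt, Npff, Nppc, Pomc, Npy, Edn3, Tac2, Cck, Gal and Adcyap1. They are 10 of the 6041 genes named on the array, and they were picked by name with their null over wild-type ratios already known. Those ratios are therefore given as a description, without a test. In the fit of all arrays Cartpt stood lowest of the 10, at 1.46-fold less RNA in null neocortex. It was below wild type on all 8 arrays that measured it. Edn3, Npff and Nppc were also lower, and Edn3 stood below Cartpt when array 4 was left out (log2 ratio -0.67 against -0.55). Pomc was higher, and Adcyap1 was above wild type on 9 of 11 arrays at a smaller log2 ratio (0.11 ± 0.06, SE). Npy and Cck lay close to wild type, while Tac2 and Gal differed widely from array to array.

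A neuropeptide is made as a longer precursor protein, which proteases of the secretory pathway cut and other enzymes trim and amidate inside dense core vesicles. Stimulated neurons release these vesicles, and the peptides act mostly on G protein coupled receptors. Munc18-1 is needed for the fusion of synaptic vesicles, and neurons without it are silent at their synapses. It also takes part in the release of dense core vesicles. Transcription of several precursor genes is known to respond to neuronal activity, in part through the factor CREB. In the cortex many peptides are made by interneurons, while others come mainly from hypothalamus, pituitary or neural crest.

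The embryos were C57BL/6 at embryonic day 18. Neocortex of 11 null embryos, described by the submitters as biological replicates, was hybridised to 1 array each against pooled wild-type neocortex from 11 biological replicates, read here as 1 pool shared by all arrays. Cy3 marked the null RNA of arrays 1, 2, 6, 7, 8 and 10, and Cy5 that of arrays 3, 4, 5, 9 and 11. On arrays 1 and 6 one label gives the wild-type RNA as day 14, while another gives day 18. No separate wild-type sample was hybridised, so errors cover the null embryos and the arrays and leave out the spread between wild-type animals. The labels name the allele only as a null mutant. The values are ratios, so the level of a gene, and with it the presence of defining markers of the tissue, could not be read.

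The deposited values were read as log2 of null over wild type. Neither the base nor the direction is stated in the sources used here, so folds assume base 2. Xist, which is transcribed in females, was at -4.18 to -7.37 on 6 arrays and at 0.00 to 0.67 on 4, as male and female null embryos against a pool of both sexes would give, and the direction is called likely on that basis. Each array held 4822 to 6316 values, array means lay between -0.0040 and 0.0030, and array medians between -0.05 and 0.04. Array 4 had the widest spread (SD 0.56 over probes). Array 9 followed the arrays of the opposite dye orientation more closely than those of its own (median Spearman correlation across probes 0.32 against 0.27), and so did array 10 (0.35 against 0.21). By the same medians the other 9 arrays followed their own orientation more closely. The highest correlation of any pair of arrays, 0.70, was that of array 9 with array 11, which has its own orientation. Among 5399 probes tested with limma, 1545 (28.6%) differed between null and wild type at an adjusted p of at most 0.05, with 754 (14%) lower and 791 (14.7%) higher. All 10 members had enough values to be tested. Of them, 4 fell among the lower calls, 1 among the higher and 5 in neither, and because the members were picked on this ratio nothing is read from that count. The members' median log2 ratio was -0.18, beside -0.0051 for all probes tested. In tissue extracts fewer cells of a type and less RNA per cell cannot be told apart.

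Promoter sequence is shown for 3 members. Cartpt is the member with the lowest ratio in the fit of all arrays, and Tac2 and Gal are the pair with the highest Pearson correlation over arrays. Each run is 5′ to 3′ on the gene's strand, from 250 bases before to 50 bases after the annotated start, taken from RefSeq on GRCm38.p6. Capitals mark the CRE, the site bound by CREB (TGACGTCA), or its short form (TGACG, or CGTCA on the other strand), and lower case marks all other bases.
Cartpt (chr13:99900634-99900933, minus strand): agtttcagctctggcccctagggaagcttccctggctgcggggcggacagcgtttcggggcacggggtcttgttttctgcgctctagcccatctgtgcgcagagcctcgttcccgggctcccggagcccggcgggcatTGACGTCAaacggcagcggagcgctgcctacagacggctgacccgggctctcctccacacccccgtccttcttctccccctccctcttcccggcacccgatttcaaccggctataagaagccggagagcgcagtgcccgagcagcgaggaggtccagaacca
Gal (chr19:3414495-3414794, minus strand): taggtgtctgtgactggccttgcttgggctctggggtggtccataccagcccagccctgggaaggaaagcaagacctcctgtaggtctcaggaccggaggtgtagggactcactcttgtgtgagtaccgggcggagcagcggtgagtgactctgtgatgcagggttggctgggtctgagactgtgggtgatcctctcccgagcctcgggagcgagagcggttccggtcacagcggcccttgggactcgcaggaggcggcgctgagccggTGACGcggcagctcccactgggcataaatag
Tac2 (chr10:127724228-127724527, plus strand): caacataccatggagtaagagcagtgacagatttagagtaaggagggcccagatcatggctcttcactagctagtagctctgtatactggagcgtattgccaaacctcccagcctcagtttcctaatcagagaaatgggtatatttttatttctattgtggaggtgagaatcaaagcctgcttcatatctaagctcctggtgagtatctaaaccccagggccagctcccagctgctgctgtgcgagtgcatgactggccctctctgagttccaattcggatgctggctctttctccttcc
The Cartpt run holds a full CRE that begins 112 bases before the start. The Gal run holds the short form 20 bases after the start, and the Tac2 run holds neither motif.

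RefSeq entries matched 9 of the 10 members, all but Npff. The full CRE was found in Cartpt alone, beside 1.79% of 32851 promoters of the same length (588 with the motif). The short form, which every CRE also contains, was found in 4 members (Cartpt, Gal, Cck and Adcyap1) and in 20.81% of all promoters. The E box CACGTG, searched as a further motif, was found in Cck alone and in 7.15% of all promoters. These are letter matches in a short window and say nothing of whether a factor binds there.

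Cartpt encodes the precursor of the CART peptides, which act on feeding and reward and are made by hypothalamic and some cortical neurons. With the null RNA in Cy3, its log2 ratios were -0.61, -0.59, -0.68, -1.04 and -0.52 (arrays 1, 2, 6, 7 and 8). With the null RNA in Cy5 the values were -0.70, -0.37 and -0.14 (arrays 3, 5 and 11), and arrays 4, 9 and 10 gave none. All 8 values were below 0, array 7 was lowest and array 11 closest to wild type. The fitted log2 ratio was -0.55 ± 0.08 (SE, n = 8). It lay between -0.61 and -0.47 when any 1 of the 8 was left out.

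Pomc encodes proopiomelanocortin, from which ACTH, the melanocortins and beta-endorphin are cut. Its ratios with the null RNA in Cy3 were 0.12, 0.22, 0.21, 0.21, 0.35 and 0.53 (arrays 1, 2, 6, 7, 8 and 10). The Cy5 arrays gave 0.40, 0.15, -0.0057 and 0.12 (arrays 3, 5, 9 and 11), with no value for array 4. Pomc was above wild type on 9 of 10 arrays and level with it on array 9. The fitted log2 ratio was 0.22 ± 0.05 (SE, n = 10), or 1.16-fold higher. Without arrays 3, 4 and 10, on which several members stood apart, it was 0.15 ± 0.04.

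Npy encodes neuropeptide Y, a feeding peptide of the hypothalamus that is also made by a class of cortical interneurons. Its ratios in Cy3 were 0.11, 0.03, -0.0016, -0.09, -0.14 and 0.21 on arrays 1, 2, 6, 7, 8 and 10. Cy5 ratios were 0.22, -0.09, -0.05 and 0.08 on arrays 4, 5, 9 and 11. Npy was above wild type on 5 arrays and below it on 5. The fit gave 0.03 ± 0.05 (SE, n = 10), and its sign changed with the setting, being positive in 20 of 23 settings.

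Gal encodes galanin, a peptide of hypothalamic and brainstem neurons. In Cy3 its ratios were 0.26, -0.11, 0.19, -0.09, -0.07 and -0.87 (arrays 1, 2, 6, 7, 8 and 10). The Cy5 values were -0.56, -0.22, -0.05 and 0.07 (arrays 3, 5, 9 and 11), and array 4 gave none. Arrays 3 and 10 stood far below the other 8. The fitted ratio was -0.15 ± 0.10 (SE, n = 10) with them and -0.02 ± 0.06 without arrays 3, 4 and 10.

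Tac2 encodes neurokinin B, a tachykinin. Its ratios in Cy3 were 0.14, -0.02, -0.09, 0.23, 0.37 and -0.88 (arrays 1, 2, 6, 7, 8 and 10). Those in Cy5 were -0.76, -1.39, -0.55, -0.10 and -0.15 (arrays 3, 4, 5, 9 and 11). Arrays 3, 4, 5 and 10 were low, and the other 7 lay between -0.15 and 0.37. The fitted ratio was -0.32 ± 0.12 (SE, n = 11), against -0.07 ± 0.07 without arrays 3, 4 and 10.

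**Figure D1:**
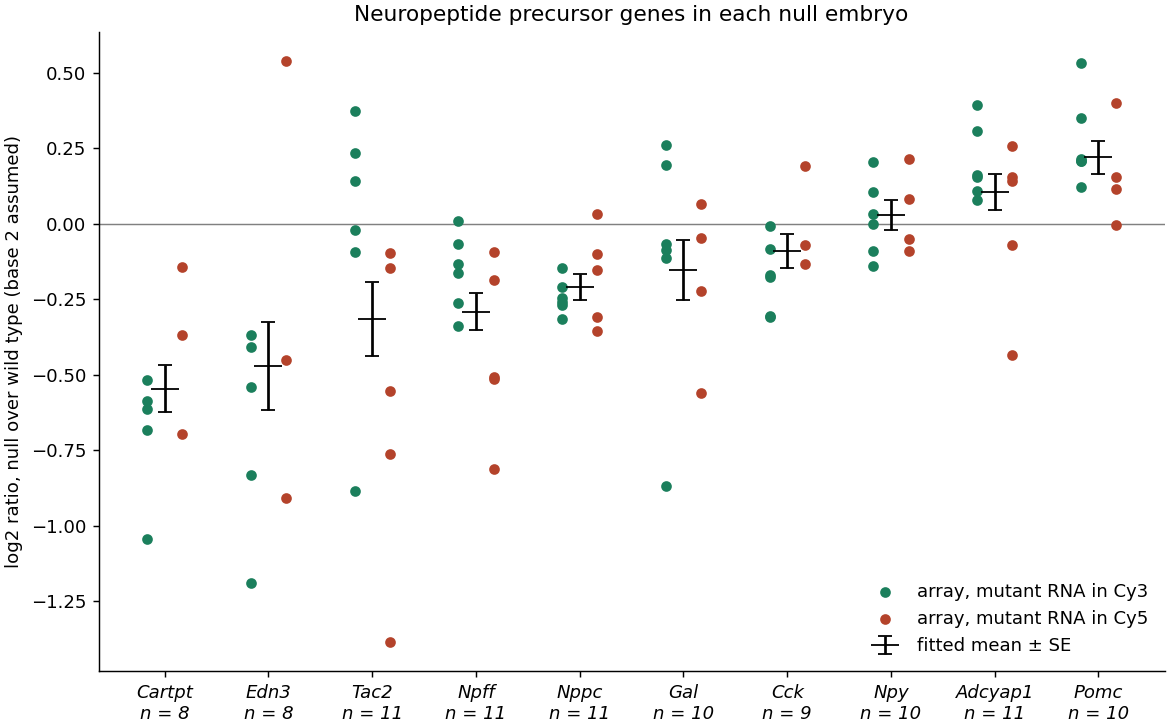
Log2 ratio of null over wild type (vertical axis) of each of the 10 precursor genes (horizontal axis, ordered by the fitted mean), with 1 point per array coloured by the dye of the null RNA and the fitted mean ± SE in black. Cartpt lies below 0 on all 8 arrays, Pomc above 0 on 9 of 10, and the points of Tac2 run from -1.39 to 0.37.

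Cck encodes cholecystokinin, one of the most abundant cortical peptides. In Cy3 its ratios were -0.31, -0.0065, -0.17, -0.31, -0.08 and -0.18 on arrays 1, 2, 6, 7, 8 and 10. In Cy5 they were -0.07, 0.19 and -0.13 on arrays 3, 5 and 11. Array 5 was the only one of 9 above wild type. The fitted Cck ratio was -0.09 ± 0.06 (SE, n = 9).

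Adcyap1 encodes PACAP, a peptide of the secretin family with trophic effects on developing neurons. In Cy3 its ratios were 0.15, 0.11, 0.39, 0.08, 0.16 and 0.31 on arrays 1, 2, 6, 7, 8 and 10. In Cy5 they were 0.16, -0.43, 0.26, 0.14 and -0.07 on arrays 3, 4, 5, 9 and 11. Adcyap1 was above wild type on 9 of 11 arrays, and array 4 was far below the rest. For Adcyap1 the fit gave 0.11 ± 0.06 (SE, n = 11) and 0.16 ± 0.05 without array 4.

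Npff encodes the precursor of neuropeptide FF, which modulates opioid signalling. In Cy3 its ratios were -0.07, -0.16, -0.13, -0.26, -0.34 and 0.01 on arrays 1, 2, 6, 7, 8 and 10. In Cy5 they were -0.09, -0.81, -0.19, -0.51 and -0.51 on arrays 3, 4, 5, 9 and 11. Npff was below wild type on 10 of 11 arrays, by most on array 4. For Npff the fit gave -0.29 ± 0.06 (SE, n = 11), or 1.22-fold lower. Its mean was -0.16 on the Cy3 arrays and -0.42 on the Cy5 arrays, and neither set alone placed it among the lower calls.

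Nppc encodes C-type natriuretic peptide, which raises cyclic GMP through its receptor Npr2. In Cy3 its ratios were -0.15, -0.27, -0.26, -0.21, -0.32 and -0.24 on arrays 1, 2, 6, 7, 8 and 10. In Cy5 they were -0.31, -0.36, -0.10, 0.03 and -0.15 on arrays 3, 4, 5, 9 and 11. The 6 Cy3 arrays agreed closely (SD 0.06), and array 9 was the only one above wild type. For Nppc the fit gave -0.21 ± 0.04 (SE, n = 11), or 1.16-fold lower.

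Edn3 encodes endothelin 3, which through its receptor Ednrb guides neural crest cells to the gut and skin. Cy3 ratios were -0.37, -0.41, -0.83, -1.19 and -0.54 (arrays 1, 2, 6, 7 and 8). Cy5 ratios were -0.45, 0.54 and -0.91 (arrays 3, 4 and 5), and arrays 9, 10 and 11 gave no value. Array 4 was opposite to the other 7. The fitted ratio was -0.47 ± 0.15 (SE, n = 8). It was -0.79 without arrays 3, 4 and 10, of which array 10 had no value, and array 5 was then the only Cy5 array. Leaving out 1 of its 8 arrays moved the ratio between -0.67 (without array 4) and -0.31 (without array 5). Edn3 was no longer among the lower calls without array 3 (-0.43), 5 (-0.31), 6 (-0.45), 7 (-0.41) or 8 (-0.49).

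The members also differed in how far the arrays spread around their mean, a measure that the choice of members did not use directly. Each null embryo had 1 array, so spread between embryos and spread between arrays cannot be told apart. The residual SD after a term for dye orientation ran from 0.11 for Nppc to 0.51 for Edn3, and its median over all probes tested was 0.19. Edn3, Tac2 and Gal ranked at the 97.2th, 96.5th and 91.2th percentile of all probes. Nppc ranked at the 9.35th percentile, Npy at the 16.9th and Cck at the 19.6th. Array 4, the widest array, contributed to Edn3 and Tac2 and gave no value for Gal.

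**Figure D2:**
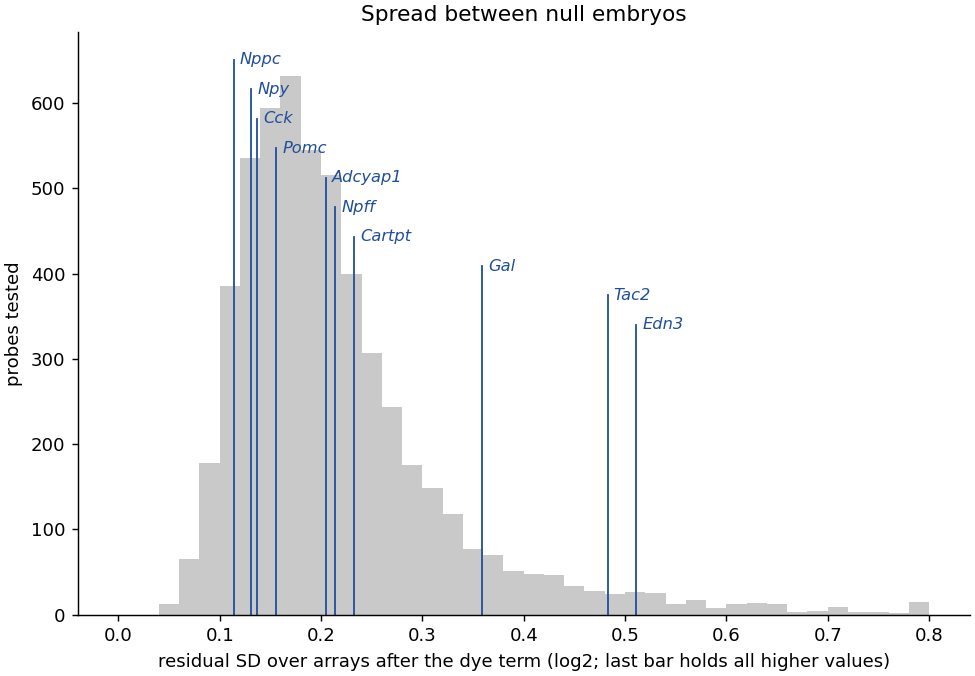
Histogram of the residual SD over arrays, after the dye term, of the 5399 probes tested (horizontal axis, log2 units; the last bar holds all higher values), with each precursor marked by a vertical line whose height only separates the names. Edn3 (0.51), Tac2 (0.48) and Gal (0.36) lie in the right tail, and Nppc (0.11) lies in the left part.

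Whether the ratio of a member shifted with dye orientation was tested with limma for every probe, and 4 of 5399 probes (0.0741%) had such a shift at an adjusted p of at most 0.05, none of them a member. The largest member shift was that of Tac2, with a mean of -0.04 ± 0.45 (SD, n = 6) in Cy3 and -0.59 ± 0.52 (SD, n = 5) in Cy5. The difference, Cy5 minus Cy3, was -0.55 ± 0.24 (SE) with a limma p of 0.042 and an adjusted p of 0.21. The orientation of arrays 9 and 10 was also exchanged in the fit, as their median correlations with the other arrays ran. The Tac2 difference was then -0.84 ± 0.17 with a limma adjusted p of 0.0073. It was -0.84 ± 0.20 with an adjusted p of 0.023 when both arrays were left out. The count over all probes went from 4 of 5399 to 594 of 5399 with the exchange, and to 580 without both arrays. Both settings were chosen after the data were seen. The exchange follows correlations in these same data and places array 10, low in Tac2, with the Cy5 arrays. Nothing is therefore read from the adjusted p values of these fits. The log2 ratio of Tac2 itself was -0.33 ± 0.09 with the exchange and -0.29 ± 0.10 without both arrays. Each null embryo was labelled with 1 dye only, so dye and embryo cannot be told apart for the low Tac2 values.

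The neuron markers on array 3, and the neocortex markers on arrays 3, 4 and 10, lay outside the range of the other 8 arrays. The medians given here cover every probe of a list with a value on that array, whether or not it was tested. The median log2 ratio of the neuron markers took values of -0.35, -0.15 and -0.16 for arrays 3, 4 and 10, while the other 8 gave -0.16 to 0.05. The median of the neocortex markers was 0.04, -0.08 and 0.15 on arrays 3, 4 and 10, against 0.17 to 0.40 for the others. Array 5, also low for Tac2, was among the other 8, at -0.09 for neuron and 0.33 for neocortex markers. The hypothalamus markers had medians of 0.10, -0.0026 and 0.02 on arrays 3, 4 and 10 and -0.12 to 0.03 elsewhere. The microglia median was 0.70 on array 3, against 0.20 to 0.57 on the other 8 arrays. The astrocyte median was 0.30 on array 4, against -0.06 to 0.18. The part of these cells and regions in the low Tac2 and Gal values was not tested.

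**Figure D3:**
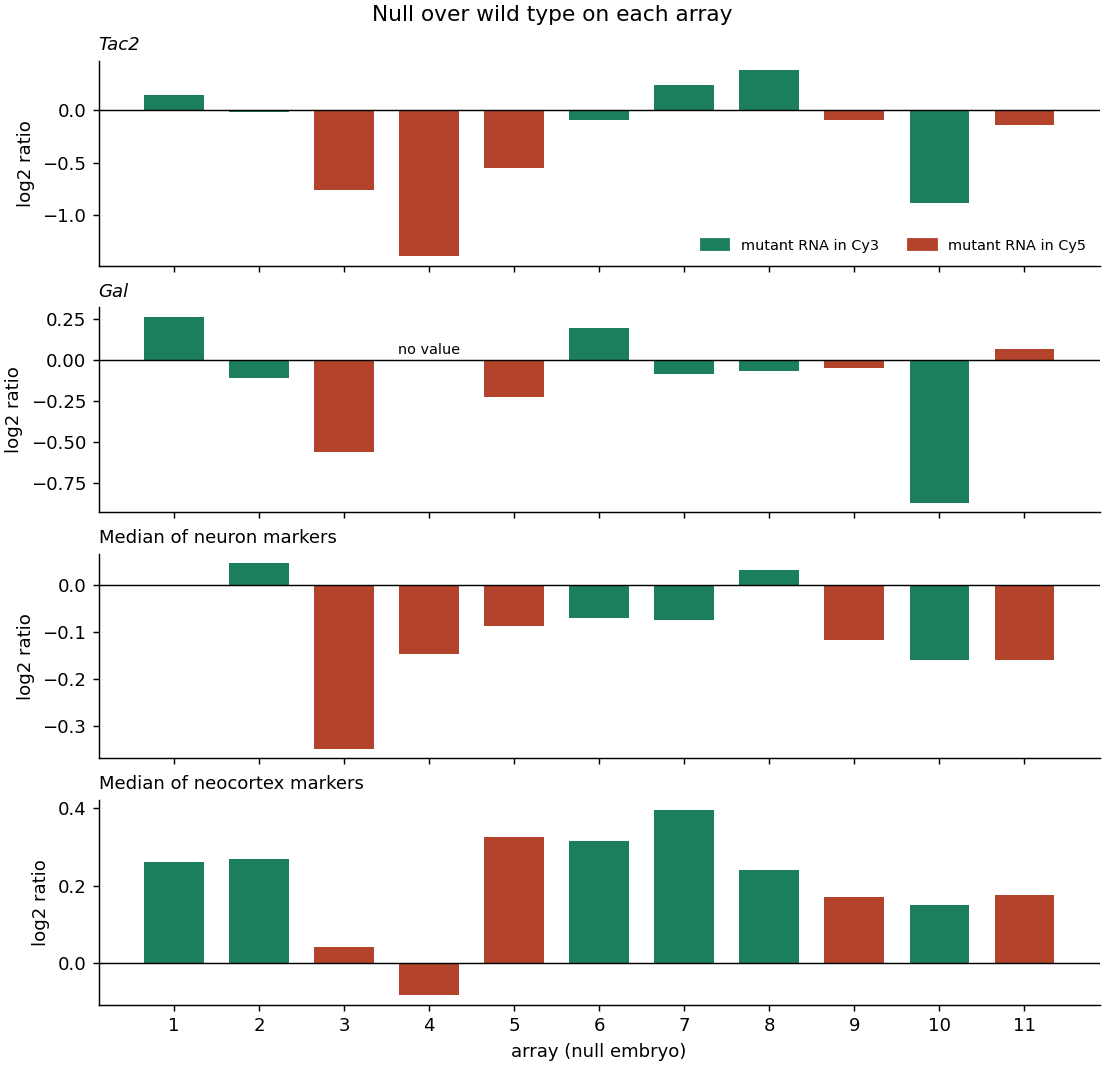
Log2 ratio of null over wild type on each array for Tac2, for Gal and for the median of the neuron and neocortex marker lists (vertical axes differ in range), with bars coloured by the dye of the null RNA. Tac2 and Gal are both lowest on arrays 3 and 10 among the arrays that measured both, and the neuron median is lowest on array 3 (-0.35).

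Co-variation between members was compared over the arrays, with values centred within each dye orientation and an exact permutation test within orientations. Of 45 pairs, 39 shared at least 8 arrays, and none passed an adjusted p of 0.05 (lowest 0.20). At an unadjusted p of at most 0.05 there were 6 pairs. The pair with the highest Pearson correlation was Tac2 and Gal, with r = 0.83 (exact permutation p = 0.024, n = 10) and Spearman's rho = 0.56 (exact permutation p = 0.11). Their relation rests on arrays 3 and 10: without the 2 arrays farthest from the Tac2 median r was 0.08, and without array 10 alone it was 0.50. By rho another pair, Npff and Adcyap1, named after its values were seen, stood higher at 0.68 (exact permutation p = 0.047, n = 11), with r = 0.79, or 0.56 without array 4. The pair with the lowest r was Pomc and Gal, with r = -0.88 (exact permutation p = 0.0051, n = 10) and rho = -0.72 (exact permutation p = 0.032), and all 3 pairs have an adjusted p of 0.20. For Pomc and Gal r was -0.82 without arrays 9 and 10, the 2 farthest from the Pomc median (exact permutation p = 0.050, n = 8). It was -0.92 within the 6 Cy3 arrays, which include array 10, and -0.53 without arrays 3, 4 and 10. Arrays 3 and 10 had the 2 highest Pomc and the 2 lowest Gal values. All arrays are read as sharing 1 wild-type pool, so these correlations are taken to run over null embryos only. With 1 array for each embryo, embryo and array cannot be told apart in them.

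Receptors of these peptides were described next, from a list of 31 genes with 21 on the array and 15 tested: 2 were lower, 2 higher and 11 not past the threshold, a share near the 28.6% of all probes called, with a median log2 ratio of 0.0093. Galr3, a galanin receptor, fell in null neocortex. Its ratios were -0.61, -0.64, -0.35, -0.38, -0.61, -0.83, -0.84, -0.46, -1.23, -0.39 and -1.20 on arrays 1 to 11, so all 11 embryos were below wild type and arrays 9 and 11 lowest. The log2 ratio was -0.69 ± 0.08 (SE, n = 11), with a limma adjusted p of 5.2e-05, and it passed in all 11 fits that left out 1 array. Galr3 was least reduced on arrays 3, 4 and 10, where Tac2 was lowest. It was lower on arrays 6, 7, 9 and 11, on which Xist was at 0.00 to 0.67, than on any other array. Array 4 had no Xist value, and Xist was at -4.18 to -7.37 on the rest. The part of embryo sex in the Galr3 values was not tested. Galr1 was at -0.13 ± 0.05 and below 0 on all 9 arrays that measured it, and did not pass (limma adjusted p = 0.060).

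Mc3r, a melanocortin receptor that binds peptides cut from the Pomc product, fell by 0.21 on the log2 scale (SE 0.05, n = 11), with a limma adjusted p of 0.0092 and 10 of 11 arrays below 0. Ednrb, the receptor of endothelin 3, rose by 0.24 ± 0.07 (SE, n = 8, limma adjusted p = 0.022), with 7 of 8 arrays above 0. Its call was lost without array 5, 7 or 11 (0.24, 0.22 and 0.19). Npy6r, a receptor of the neuropeptide Y family, rose by 0.20 ± 0.06 (SE, n = 11, limma adjusted p = 0.034), and its call was lost without array 1, 2, 5, 6, 7, 9 or 11, with ratios of 0.16 to 0.19. Vipr1, which binds PACAP and VIP, was at -0.11 ± 0.06 (limma adjusted p = 0.16), and Npy5r at 0.10 ± 0.05 (limma adjusted p = 0.19). The neurokinin B receptor Tacr3 had values on 2 arrays and the PACAP receptor Adcyap1r1 on 4, and neither was tested.

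Other peptide precursors came from a list of 64 genes, of which 31 were on the array and 17 had enough values to test: 1 was lower, 3 higher and 13 not past the threshold, beside 28.6% of all probes called, with a median log2 ratio of 0.012. Sct, the secretin precursor, rose on all 11 arrays (lowest 0.01, highest 0.81), at 0.44 ± 0.07 (SE, limma adjusted p = 0.00066). Nppb, which encodes B-type natriuretic peptide, rose by 0.18 ± 0.04 (SE, n = 11, limma adjusted p = 0.0041), with 8 of 11 arrays above 0. Its mean was -0.02 on the Cy3 arrays and 0.39 on the Cy5 arrays. Ppy, the pancreatic polypeptide precursor, was called at 0.26 ± 0.09 (SE, n = 10, limma adjusted p = 0.047) and lost the call without array 1, 3, 4, 6, 7, 8, 10 or 11. Without array 4, its highest value at 1.08, the ratio was 0.16, and in the other 7 of these fits it lay between 0.23 and 0.30. Its mean was 0.03 on the Cy3 arrays and 0.49 on the Cy5 arrays.

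Pth, which encodes parathyroid hormone, was lower at -0.46 ± 0.14 (SE, n = 11, limma adjusted p = 0.028). Its ratios were -1.17, -1.15, -1.25 and -1.35 on arrays 3, 4, 5 and 10 and between -0.36 and 0.31 on the other 7, the same 4 low arrays as for Tac2. The ratio was -0.23 ± 0.09 (limma adjusted p = 0.078) without arrays 3, 4 and 10, and the call was also lost without array 3, 4 or 5 alone (-0.42, -0.42 and -0.41). Uts2 (-0.19 ± 0.11), Apln (0.13 ± 0.08) and Nmu (0.10 ± 0.07) did not pass, with limma adjusted p values of 0.23, 0.24 and 0.31. Further precursors, some of them prominent in cortex, were not tested for want of values: Sst was measured on 7 arrays, Penk on 1, and Pnoc, Cort and Trh on 0. The 7 Sst ratios, for somatostatin of cortical interneurons, were all above 0, between 0.0027 and 0.72.

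Of 27 listed genes for peptide processing and breakdown, 18 were on the array and 14 were tested: 2 were lower, 3 higher and 9 not past the threshold, beside 28.6% of all probes called, with a median log2 ratio of -0.03. Scg5, the chaperone 7B2 of the convertase PC2, rose on all 11 arrays (0.30 ± 0.06, SE, limma adjusted p = 0.0014). Mme, the peptidase neprilysin, rose on all 11 (0.36 ± 0.06, limma adjusted p = 0.00073), and Ctsl, the protease cathepsin L, on all 10 that measured it (0.43 ± 0.08, limma adjusted p = 0.0014). Prep, prolyl endopeptidase, fell by 0.26 on the log2 scale (SE 0.06, n = 11, limma adjusted p = 0.0039), with 8 of 11 arrays below 0. Its mean was -0.07 on the Cy3 arrays, which alone gave a limma adjusted p of 0.50, and -0.45 on the Cy5 arrays. Ide, the insulin-degrading enzyme, was below 0 on all 10 arrays that measured it (-0.19 ± 0.06, limma adjusted p = 0.029), and lost its call without array 4, 7, 8 or 11 (-0.18 to -0.16). Pcsk1, the convertase that cuts Pomc, was at -0.27 ± 0.12 (n = 8) and did not pass (limma adjusted p = 0.11), nor did Thop1 (-0.17, adjusted p = 0.097) or Pcsk5 (0.17, adjusted p = 0.10). Mme and Ctsl are also made by cells other than neurons.

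**Figure D4:**
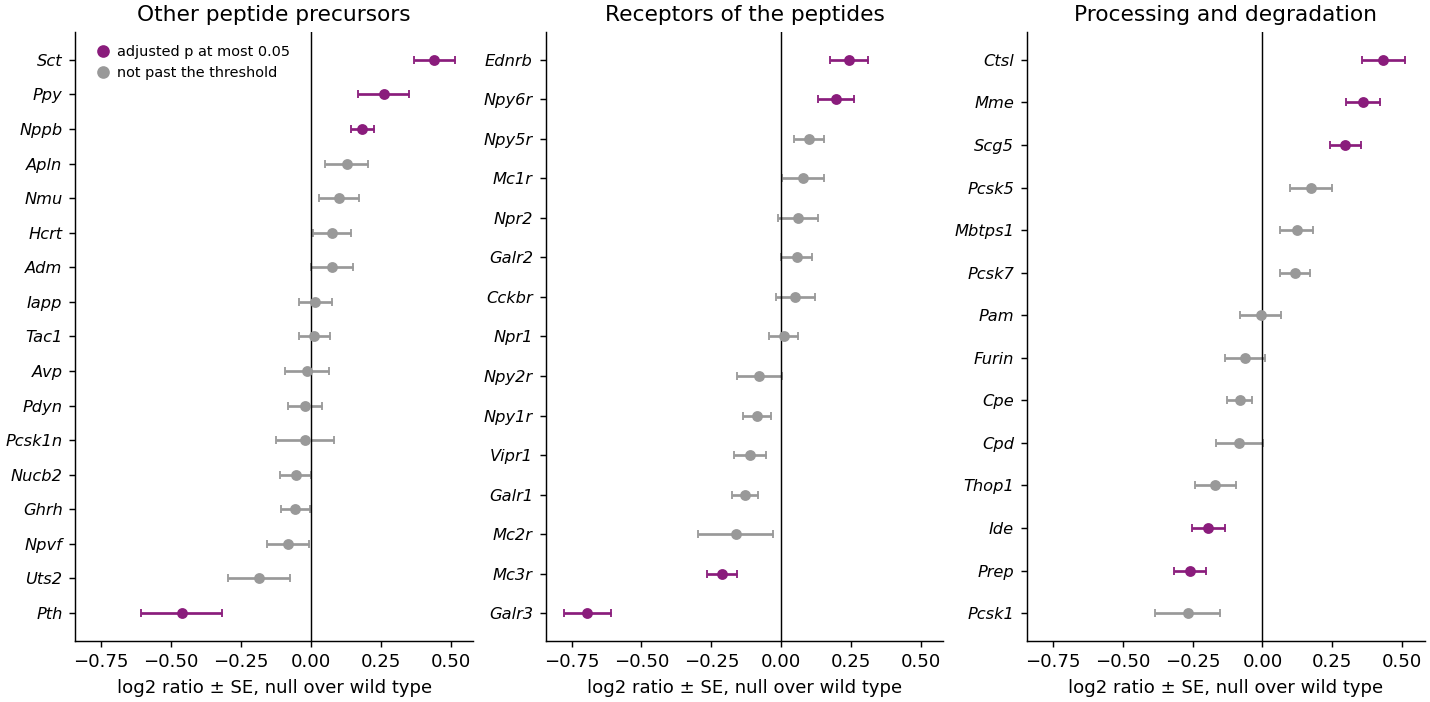
Fitted log2 ratio ± SE of null over wild type (horizontal axis) for the tested genes of 3 lists: other peptide precursors, receptors of the peptides, and processing and breakdown enzymes, with purple points at a limma adjusted p of at most 0.05. Galr3 (-0.69) and Pth (-0.46) are the lowest points, and Sct (0.44) and Ctsl (0.43) the highest.

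Markers of other cell types were read in the same comparison, in which 28.6% of all probes were called. Up to 3 of smallest p are named for each list. For microglia, interneurons, and meninges with choroid plexus the called markers of opposite direction are also named. Of 11 tested microglia markers 7 were higher and 3 lower, with Laptm5 (1.01 ± 0.06, limma adjusted p = 5.1e-08), C1qc (0.88) and C1qa (0.73) of smallest p and array medians from 0.20 to 0.70. The 3 lower microglia markers were Coro1a (-0.28), Ptprc (-0.21) and Itgam (-0.18). Of 13 astrocyte probes 5 were higher and 3 lower, with Gfap at 1.48 and Apoe at 0.95 but Slc1a3 at -0.31, and array medians from -0.06 to 0.30. Of 12 meningeal and choroid plexus markers 6 were higher and 1 lower, with Ogn at 0.58, Col1a1 at 0.42 and Mgp at 0.29, and array medians from 0.06 to 0.34. The 1 lower was Folr1 (-0.15), a choroid plexus marker. Ttr, another of choroid plexus, ran from -1.78 to 5.05 over the arrays and did not pass (limma adjusted p = 0.086). The part of these cells in the higher Pomc, Sct, Mme, Ctsl or Ednrb values was not tested.

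The counts of this paragraph stand beside 28.6% of all probes called. Among 17 probes for cortical interneurons, in which Npy, Cck and other peptides are made, 3 were lower and 1 higher. Their median log2 ratio was 0.03, and the array medians lay between -0.10 and 0.12. Slc32a1, the vesicular GABA transporter, fell by 1.02 on the log2 scale (SE 0.06), and the calcium-binding proteins Calb1 and Calb2 fell by 1.46 and 0.49, each on all 11 arrays (highest limma adjusted p of the 3 genes 7.6e-05). Htr3a was the 1 called higher, at 0.29. Of 18 neuron probes 6 were lower and 1 higher, with Gap43 (-0.50), Eno2 (-0.40) and Stmn3 (-0.35) of smallest p, while 8 of 16 neocortex markers were higher and 0 lower, with Eomes (0.44), Fezf2 (0.32) and Neurod6 (0.40) of smallest p. Of 15 striatum and thalamus markers 5 were lower, with Ppp1r1b at -0.71, Zic1 at -0.53 and Isl1 at -0.30, and array medians from -0.34 to 0.04. For hypothalamus, a main source of Pomc, Cartpt and Gal, 1 of 10 tested markers was lower (Tbx3, -0.17) and 0 were higher, and Hmx3 (0.15) and Nkx2-2 (0.07) did not pass. For pituitary, Tshb was lower (-0.22) and Hesx1 higher (0.17) of 7 tested, Lhx4 (0.17) did not pass, and array medians lay between -0.33 and 0.13. The part of these regions and cells in the members' ratios was not tested.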

How the data were processed

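The deposited table holds log ratios of 6856 probes on 11 two-colour arrays, read here as log2 because the values have a log scale of unstated base; no source used here gives the authors' background correction and normalisation. By platform annotation 6269 probes have 1 gene symbol, 6 have several and 581 lack one; 153 probes had no value. Spot signals were not used here, so the signal over background behind a ratio is unknown, and precision is limited by how many arrays measured a probe.

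Probes measured on 8 or more arrays, 3 or more per dye orientation (5399 probes, 4811 genes), were fitted in limma 3.58.1 (R 4.3.3) with a mean ratio and a dye term, moderated by eBayes and adjusted over all probes by Benjamini-Hochberg. A call is an adjusted p of at most 0.05. Missing values were not imputed. The members and lists were chosen with earlier results of these data known. Named genes are all members with every value, and every called probe of the precursor, receptor and enzyme lists. Up to 3 further genes of smallest p were named from each of these lists, and up to 3 from each marker list. The pairs of highest and lowest r were also named. Htr3a, Coro1a, Ptprc, Itgam and Folr1 were named as called markers of opposite direction, and Ttr for its spread. Galanin, neurokinin B and PACAP receptors, Penk, Sst, Pnoc, Cort and Trh without a test were named for their coverage. Pairs were tested in Python 3.11.15. Scripts were tested on simulated data. Alternatives covered the dye term, arrays, centring, scaling, filter, variance, array weights and sign. Features of the precursor proteins were not analysed here. The mutated gene is not reported here.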

Additional observations from a re-analysis of the deposited data

Results flagged for a closer look

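Tac2 on array 10, at a log2 ratio of -0.88, stood apart from the other Cy3 arrays: its gap to the nearest of them was 0.63 of the range of the 6 values, against a critical value of 0.625 in Dixon's test. Gal on array 10, at -0.87, stood apart in the same way, with a gap of 0.67 of the range. In all 23 groups of values of the members were examined, and chance sets about 1 in 20 such groups apart. Tac2 and Gal were also low on array 3, whose null RNA carried the other dye.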

How the results depend on the processing

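Of the 27 settings, not all gave member ratios. Among 234 member ratios, 229 moved by less than the SD over arrays, a wide limit that leaving out 1 array can hardly exceed. Edn3 at -0.79 without arrays 3, 4 and 10, against -0.47, stayed within it. The 5 exceptions came with the sign of the Cy5 arrays turned, which made Npff 0.13 and left 4 probes and 0 genes called in the members and in each list. With no sign turned Npy alone changed sign, in 3 of 23 settings. With Cy5 arrays alone, 454 probes, 0 members, 2 other precursors, 1 receptor and 3 enzymes were called. With Cy3 arrays alone 2 other precursors and 1 receptor were called. Without the dye term 1 other precursor was called, and without arrays 1 and 6, 1 receptor. Among probes with values on all arrays, where 4 members could be tested, 2 members and 3 enzymes were called. Leaving out each array in turn gave 2 to 4 other precursors, 2 to 5 receptors and 0 to 341 probes with a dye term, the 341 without array 10. Median centring left 0 probes with a dye term. Among settings chosen after seeing the data, dropping arrays 3, 4 and 10 gave 7 receptors and 8 enzymes. Exchanging the orientation of arrays 9 and 10, also chosen so, gave 1 member and 594 of 5399 probes with a dye term. Dropping both gave 1 member and 580 probes, and nothing is read from these member counts. The cause was not tested. No paired analysis was possible because each array compares 1 null embryo with pooled wild-type RNA, read here as the same pool. No pair of members passed in any setting. Only ratios were used, so which values lie near background is unknown.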
